A study of Mus musculus with 12 samples.

Results

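The 10 genes described here encode cytokine receptor chains of developing T cells: Il7r, Il4ra, Il21r, Il2ra, Il2rg, Il6ra, Il6st, Il27ra, Ifngr1 and Il15ra. They were chosen by name with earlier results of these data known, and each matched 1 of the 48672 gene IDs counted in every library. RNA came from mouse iNKT (invariant natural killer T) cells, whose semi-invariant T cell receptor sees lipid antigens, sorted from the thymus as tetramer-positive cells bearing the T cell receptor beta chain. The mice were C57Bl/6J, 4 to 5 weeks old, and each sort used pooled thymi of 4 to 7 animals. The 4 groups of 3 libraries were Bcl6KO stage 1, Bcl6KO stage 0, WT stage 1 and WT stage 0. Bcl6KO mice carried floxed Bcl6 alleles (Bcl6F/F) with a Cre transgene that the labels call CDCre, without saying more of its promoter, and the other mice are labelled WT. Stage 1 cells were sorted as CD24 negative and CD44 negative, and stage 0 cells, the earlier ones, as CD24 positive and CD44 negative. The series is about BCL6, a transcriptional repressor, in innate-like T cells at their earliest stages. Whether the libraries of a group stem from different pools of mice is not stated, so the p-values rest on a spread between libraries that may be technical in part.

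Cytokine receptors of this kind are built from a chain that binds the cytokine and a chain that it shares with other receptors. Il2rg encodes the common gamma chain, which pairs with the private chains of the receptors for IL-7 (Il7r), IL-4 (Il4ra), IL-21 (Il21r), IL-2 (Il2ra) and IL-15 (Il15ra). Il6st encodes gp130, the signalling partner of the IL-6 receptor (Il6ra) and of the IL-27 receptor (Il27ra). Ifngr1 encodes the ligand-binding chain of the interferon gamma receptor. Bound receptors act through Janus kinases and STAT transcription factors. In the thymus, IL-7 is a survival and growth signal, and its receptor is known to be low in double-positive thymocytes and to return after positive selection. BCL6 binds a DNA motif close to that of the STAT factors.

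Library totals ran from 4129919 to 8038717 counts. Levels are CPM, counts scaled to a common library size. In these libraries 1 CPM stood for about 5 counts, so a count of 0 allowed up to 3 counts, or 0.569 to 0.615 CPM. Defining markers of iNKT and T cells summed to between 3386 and 6476 CPM in every library, and none of the 8 was at 0. Cd24a, whose gate set the stages apart, stood at 0.799 to 1.79 CPM in Bcl6KO stage 1 and 154 to 313 CPM at stage 0. In WT it stood at 0.790 to 13.7 CPM at stage 1 and at 149 to 179.7 CPM at stage 0. The CD44 gate was negative at both stages. Cd44 RNA stood at 6.56 to 21.7 CPM in Bcl6KO stage 1 and 0.200 to 1.71 CPM in Bcl6KO stage 0. WT libraries had 3.36 to 26.9 CPM of it at stage 1 and 0.199 to 7.88 CPM at stage 0. The count of Bcl6 takes in its whole length, and which exons were removed is not stated, so it cannot check a genotype label. It was 14.7 to 56.0 CPM in Bcl6KO stage 1 cells and 511 to 657 CPM in those of stage 0, against 4.15 to 8.77 CPM in WT stage 1 and 217 to 373 CPM in WT stage 0. A single gene, Sp100, took 10.8% to 23.9% of the counts in Bcl6KO stage 0 libraries and 0.0283% to 5.03% in the other 9. In Bcl6KO stage 0 library 2 that share was 23.9%, the number of genes detected was the lowest (14860), and 6 B cell markers summed to 169 CPM, against 1.38 to 79.1 CPM in the other libraries. WT stage 0 library 2 had 1129 CPM of 7 gamma-delta T cell markers, against 145 and 34.6 CPM in libraries 1 and 3 of its group and 1414 to 3702 CPM in WT stage 1. The part of these features in the results below was not tested, except where a value without the library is given.

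The receptor genes lie on several chromosomes of the mouse build GRCm38 (mm10), with coordinates from GENCODE release M21. Il7r is on chromosome 15, 9505788 to 9530176, on the minus strand. Il4ra (chromosome 7, 125552120 to 125579474, plus strand) and Il21r (chromosome 7, 125603429 to 125633570, plus strand) are neighbours, 23954 bases apart with 0 protein-coding genes between them. Il2ra (chromosome 2, 11642807 to 11693193) and Il15ra (chromosome 2, 11705290 to 11734317), both on the plus strand, are also neighbours, 12096 bases apart with 0 protein-coding genes between. Il2rg is on chromosome X, 101264378 to 101268255, Il6ra on chromosome 3, 89864059 to 89913196, and Il27ra on chromosome 8, 84030294 to 84042589, all on the minus strand. Il6st is on chromosome 13, 112464070 to 112510086, and Ifngr1 on chromosome 10, 19591949 to 19610229, both on the plus strand.

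The bases just upstream of the start of the 4 genes that differed between stages are printed 5′ to 3′ on the strand of the gene, to give the sequence context of the receptor genes whose levels changed. They are RefSeq windows of GRCm38.p6 (up to 250 bases before the annotated start), cut where a GENCODE exon begins. A window was found for 9 of the 10 genes, Il27ra being the exception, and Il15ra has a window for each of its starts. Capitals mark a match to 1 of 3 motifs searched on both strands: TTCNNNGAA, the STAT-type motif, TTCNNNNGAA, the STAT6-type motif, and GTAAACA, the forkhead motif.
Il7r, chr15:9529877-9530040, minus strand: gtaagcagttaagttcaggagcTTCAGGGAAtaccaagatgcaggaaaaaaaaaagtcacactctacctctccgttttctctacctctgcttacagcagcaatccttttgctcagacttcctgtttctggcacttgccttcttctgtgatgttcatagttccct
Il4ra, chr7:125552021-125552119, plus strand: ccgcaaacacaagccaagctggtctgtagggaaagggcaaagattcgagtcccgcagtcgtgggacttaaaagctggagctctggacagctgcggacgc
Il21r, chr7:125603179-125603428, plus strand: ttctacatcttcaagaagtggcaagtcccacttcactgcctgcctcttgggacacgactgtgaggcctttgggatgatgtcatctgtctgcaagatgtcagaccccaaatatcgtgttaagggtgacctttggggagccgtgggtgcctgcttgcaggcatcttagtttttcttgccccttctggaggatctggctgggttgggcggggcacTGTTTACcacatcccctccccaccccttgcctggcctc
Il6st, chr13:112463820-112464069, plus strand: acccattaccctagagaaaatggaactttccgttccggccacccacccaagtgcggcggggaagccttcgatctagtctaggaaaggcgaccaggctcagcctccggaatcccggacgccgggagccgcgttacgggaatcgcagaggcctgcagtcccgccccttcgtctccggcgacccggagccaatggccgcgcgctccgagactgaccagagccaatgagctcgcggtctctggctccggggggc

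The STAT-type motif was found in 1 of the 10 receptor windows, against 7.02% of all 32851 windows. That match, TTCAGGGAA in the Il7r window, lies 142 bases before the RefSeq start (chr15:9530010-9530018). GENCODE places it inside the gene, in an intron of a longer transcript. The forkhead motif was found in 1 of the 10 windows, against 3.17% of all windows. It lies 38 bases before the start of Il21r, where the plus strand reads TGTTTAC, its reverse complement (chr7:125603391-125603397). The STAT6-type motif was found in 0 of the 10 windows, against 5.85% of all windows. A match is a run of letters and not a binding site, and its absence says only that these letters are not in the window.

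Levels of different genes were compared per kilobase of exon. By that measure Il2rg, the common gamma chain, was the most abundant of the 10 in every group: 169 ± 49.5 CPM per kb in Bcl6KO stage 1, 246 ± 61.9 in Bcl6KO stage 0, 151 ± 46.0 in WT stage 1 and 180 ± 37.2 in WT stage 0 (SD, n = 3 each). Il7r was next in Bcl6KO stage 1 (103 ± 13.7 CPM per kb), in Bcl6KO stage 0 (99.9 ± 65.9) and in WT stage 1 (111 ± 8.04). In WT stage 0 it stood sixth by mean, at 12.8 ± 11.3 CPM per kb, and the gene next to the common chain was Il21r, at 74.8 ± 32.4 CPM per kb. The lowest means were those of Il2ra in Bcl6KO stage 1 (0.348 CPM per kb), Il4ra in WT stage 1 (0.703 CPM per kb) and Il15ra in WT stage 0 (0.931 CPM per kb), while in Bcl6KO stage 0 Il15ra was at 0 in all libraries. In bulk RNA, fewer cells that express a receptor and less RNA per cell cannot be told apart. The plot of the levels in each library shows all 10 genes.

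**Figure D1:**
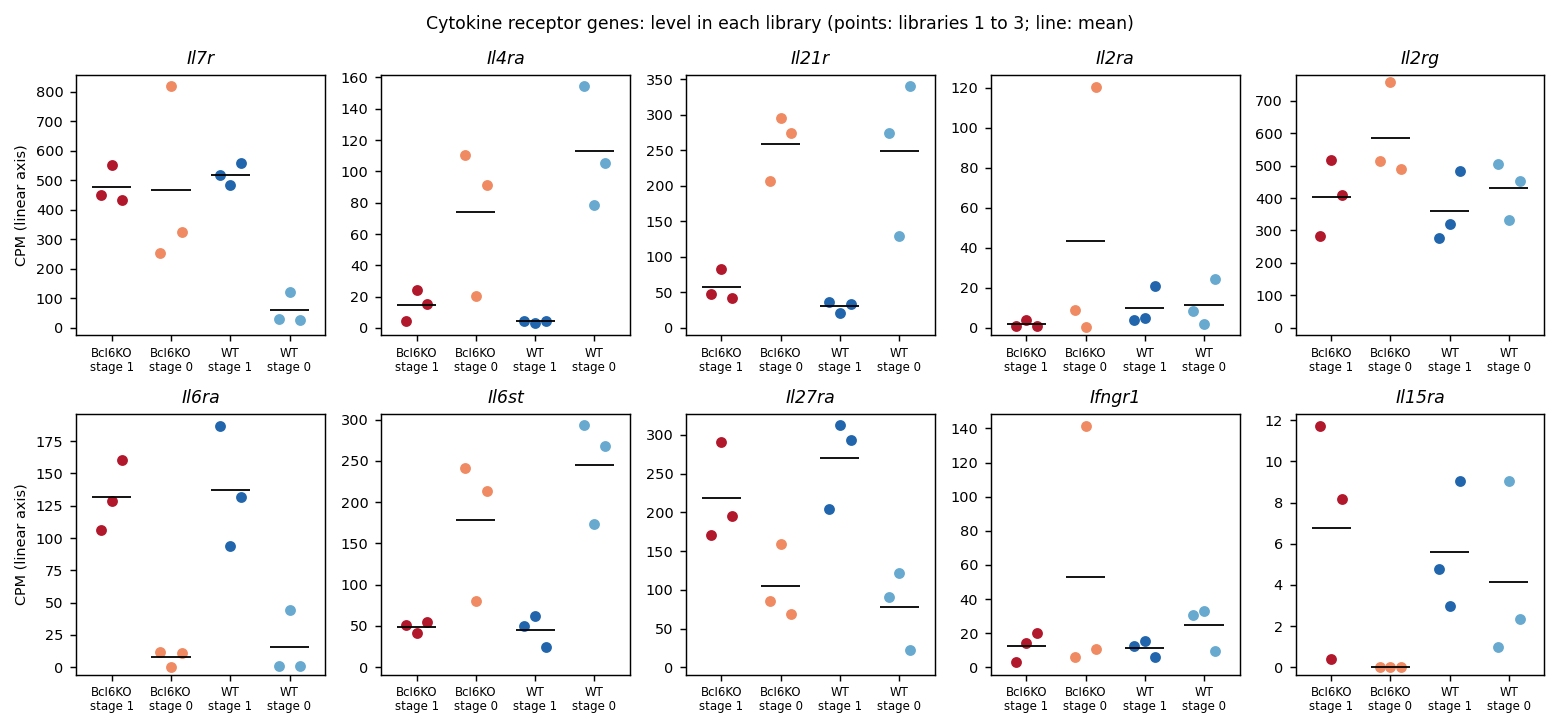
Level of each of the 10 receptor genes in each of the 12 libraries, in CPM on a linear axis with its own scale per gene (points are libraries 1 to 3 of a group, the line is the mean of 3). Il7r is low in WT stage 0 alone, at 28.3 to 120.1 CPM, Il4ra, Il21r and Il6st have higher means at stage 0 than at stage 1 in both genotypes, and a single Bcl6KO stage 0 library sets the mean of Ifngr1 (142 CPM) and another that of Il2ra (121 CPM).

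In WT cells, stage 1 libraries had more Il7r and less Il4ra, Il21r and Il6st than stage 0 libraries, and each of these 4 differences passed edgeR's quasi-likelihood F-test at a p under 0.05 after Benjamini-Hochberg adjustment over 15704 genes. Thus 1 receptor gene rose and 3 fell of 10, all of which were among the genes tested, where 0.433% of all tested genes passed (0.07% higher and 0.363% lower). The 10 were chosen with earlier results of these data known, so this comparison of shares cannot show an excess. The libraries of the WT stages did not overlap for 6 of the 10, where 21.5% of all tested genes did not. In Bcl6KO cells, 1 of the 10 passed between the stages, where 0.675% of all tested genes did (0.42% higher and 0.255% lower): Il21r, which fell. The Bcl6KO stages did not overlap for 5 of the 10, where 17.5% of all tested genes did not. Averaged over the genotypes, 6 libraries against 6, the same 4 genes passed as in WT cells, Il7r upward and Il4ra, Il21r and Il6st downward, where 3.46% of all tested genes did (2.04% higher and 1.42% lower). The average uses the libraries of the comparisons it averages, so it is no separate support for them. DESeq2 called 6 of the 10 between the stages in Bcl6KO, 4 in WT and 7 on average, where it called 8.54%, 2.66% and 9.75% of the genes to which it gave an adjusted p. The median log2 fold change of the 10 was -1.20 in Bcl6KO, -0.24 in WT and -0.99 on average, against medians of 0.01, -0.00020 and 0.03 over all tested genes. The WT count rested on single libraries: 0 receptor genes passed without WT stage 1 library 2, and 1, Il21r, without WT stage 1 library 1 or 3 or WT stage 0 library 1 or 3. It was 2 (Il4ra and Il21r) without Bcl6KO stage 1 library 2 or 3, which enter only the estimate of the spread. Without WT stage 0 library 2 it was 5, with Il6ra added.

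The sums of some marker lists of other cells also moved between the stages. The sum of 9 double-positive thymocyte markers was 32.0 to 71.9 CPM in Bcl6KO stage 1 and, at stage 0, 974 to 1120 CPM, against 19.9 to 34.1 CPM in WT stage 1 and 509 to 1549 CPM in WT stage 0. Rag2 was at 0 in all WT stage 1 libraries, and in the other groups none of the 9 was at 0 throughout. The sum of 7 gamma-delta T cell markers was 759 to 1045 CPM in Bcl6KO stage 1 and, at stage 0, 11.9 to 220 CPM, against 1414 to 3702 CPM in WT stage 1 and 34.6 to 1129 CPM in WT stage 0. A list of 11 NK cell and NKT1 markers holds Il2rb. Its sum was 304 to 443 CPM in Bcl6KO stage 1 and 319.8 to 508 CPM in WT stage 1. In Bcl6KO stage 0 libraries 1 to 3 the sums were 167, 518 and 53.6 CPM. Il2rb alone gave 166, 517 and 41.5 CPM of these. Tbx21, Klrb1c, Ncr1, Nkg7 and Xcl1 were at 0 in all of them. In WT stage 0 the sums were 193, 270.3 and 115 CPM, with 184, 163 and 89.8 CPM of Il2rb. Ncr1 was at 0 in every library, and Xcl1 also in all of Bcl6KO stage 1. The sum of 6 B cell markers was 3.18 to 8.98 CPM in Bcl6KO stage 1 and, at stage 0, 18.7 to 169 CPM, against 1.38 to 4.78 CPM in WT stage 1 and 6.69 to 57.4 CPM in WT stage 0. Ms4a1 was at 0 in all stage 1 libraries of both genotypes. The sum of 6 thymic epithelial cell markers was 61.5 to 81.1 CPM in Bcl6KO stage 1 and, at stage 0, 96.5 to 118 CPM, against 43.2 to 63.0 CPM in WT stage 1 and 66.5 to 107 CPM in WT stage 0, with Krt5 and Krt8 at 0 in every library. The double-positive, B cell and epithelial sums were thus higher in every stage 0 library than in any stage 1 library of the same genotype, the direction of Il4ra, Il21r and Il6st in WT. The gamma-delta sums were higher in every stage 1 library than in any stage 0 library of the same genotype, the direction of Il7r in WT. The sum of 8 myeloid cell markers overlapped between the stages in both genotypes. It was 59.0 to 141 CPM in Bcl6KO stage 1 and 33.5 to 94.0 CPM in Bcl6KO stage 0. In WT it was 27.4 to 76.9 CPM at stage 1 and 27.8 to 56.5 CPM at stage 0. The sum of 6 erythroid cell markers also overlapped in both, with a highest value of 23.4 CPM, in Bcl6KO stage 0. The part of these cells in the stage differences of the receptor genes was not tested.

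**Figure D2:**
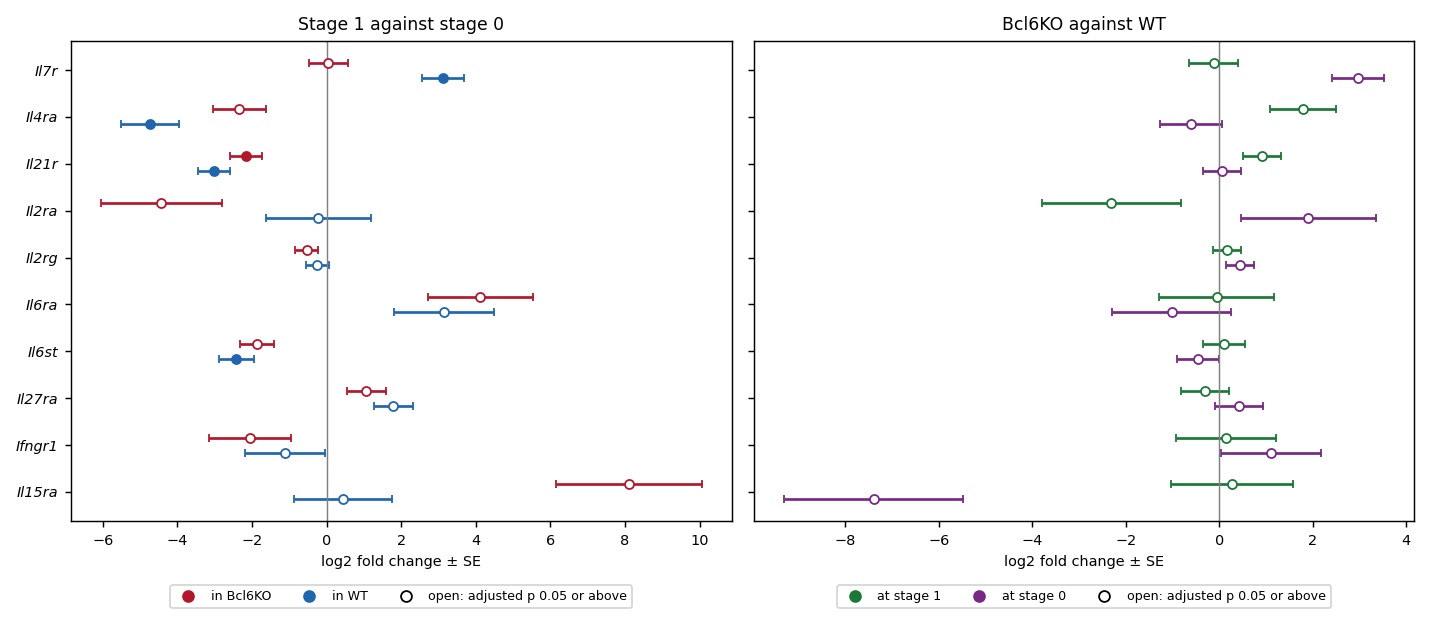
log2 fold change with its standard error (edgeR, 3 libraries a group) of each receptor gene, for stage 1 against stage 0 in Bcl6KO and in WT (left) and for Bcl6KO against WT at stage 1 and at stage 0 (right), with filled points at an adjusted p under 0.05. Filled points are Il7r, Il4ra, Il21r and Il6st in WT and Il21r in Bcl6KO. The values of Il15ra that involve Bcl6KO stage 0, where its count was 0, depend on the prior count.

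Il7r, which encodes the IL-7 receptor alpha chain, stood at 451, 551 and 432 CPM in libraries 1 to 3 of Bcl6KO stage 1 and at 255, 818 and 324 CPM in those of Bcl6KO stage 0. WT stage 1 libraries had 518, 483 and 557 CPM, and WT stage 0 libraries had 30.01, 120.1 and 28.3 CPM. The WT stage 0 libraries were the lowest 3 of the 12, with no overlap with any other group, and the other 3 groups overlapped one another. Between the stages the log2 fold change was 3.13 in WT (SE 0.57, edgeR adjusted p = 0.0320) and 0.04 in Bcl6KO (SE 0.52, edgeR adjusted p = 0.984). Against WT, Bcl6KO libraries differed by 2.97 at stage 0 (SE 0.56, edgeR adjusted p = 0.1003) and -0.12 at stage 1 (SE 0.52, edgeR adjusted p = 1). The stage 0 difference thus did not pass, although the libraries of the groups did not overlap. It was 2.28 without Bcl6KO stage 0 library 2 (edgeR adjusted p = 0.142) and 3.96 without WT stage 0 library 2 (edgeR adjusted p = 0.0515), the library of its group with the most Il7r. It passed without Bcl6KO stage 0 library 1 (3.25, edgeR adjusted p = 0.0231) and in DESeq2 (3.02, DESeq2 adjusted p = 5.50e-05).

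The test of whether the genotype difference itself differed between the stages gave -3.09 for Il7r (SE 0.76, edgeR adjusted p = 0.494). This missed the threshold in edgeR and passed it in DESeq2 (-3.12, DESeq2 adjusted p = 0.0272). Across 18 alternative settings the stage 0 difference of Il7r kept its sign in 18 and passed in 3. The WT stage difference kept its sign in 18 and passed in 11, and was lost without any one of WT stage 0 libraries 1 and 3, the 3 WT stage 1 libraries and Bcl6KO stage 1 libraries 2 and 3. The rise averaged over genotypes (1.58, SE 0.38, edgeR adjusted p = 0.0379) passed in 7 of 17 settings. Of the 12 fits without 1 library, it passed in those without WT stage 0 library 2 and without Bcl6KO stage 0 library 2.

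Il4ra encodes the chain that binds IL-4 and also takes part in the IL-13 receptor. It stood at 4.57, 24.0 and 15.4 CPM in Bcl6KO stage 1 and at 111, 20.5 and 91.6 CPM in Bcl6KO stage 0. In WT cells it stood at 4.78, 3.16 and 4.72 CPM at stage 1 and at 154, 78.6 and 105 CPM at stage 0. The WT stages were far apart, while in Bcl6KO the stages overlapped, with stage 0 library 2 (20.5 CPM) below stage 1 library 2 (24.0 CPM). Between the stages the log2 fold change was -4.73 in WT (SE 0.78, edgeR adjusted p = 0.0179) and -2.34 in Bcl6KO (SE 0.70, edgeR adjusted p = 0.128). In Bcl6KO it was -2.78 without stage 0 library 2 (edgeR adjusted p = 0.0719), and it passed in DESeq2 (-2.35, DESeq2 adjusted p = 0.0112). Averaged over the genotypes Il4ra fell (-3.53, SE 0.52, edgeR adjusted p = 0.00317), and this passed in 17 of 17 alternative settings. The WT difference passed in 13 of 18 and was lost without any one of the WT stage 1 libraries or WT stage 0 library 1 or 3.

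For Bcl6KO against WT, the log2 fold change of Il4ra was -0.60 at stage 0 (SE 0.67, edgeR adjusted p = 0.732) and 1.79 at stage 1 (SE 0.70, edgeR adjusted p = 1). At stage 1 the groups overlapped, since Bcl6KO library 1 (4.57 CPM) lay within the WT range. The test of a difference between these genotype effects gave 2.39 (SE 0.97, edgeR adjusted p = 0.578). Of the exonic bases of Il4ra, 9.51% also belong to Gm44876, a predicted gene on the opposite strand. Gm44876 was counted 3 to 13 times in Bcl6KO stage 1, 120 to 289 times in Bcl6KO stage 0, 0 to 18 times in WT stage 1 and 62 to 103 times in WT stage 0. Without a stated strand setting, reads in the shared bases cannot be told apart.

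Il21r encodes the private chain of the IL-21 receptor. It stood at 48.3, 82.5 and 42.5 CPM in Bcl6KO stage 1 and at 207, 296 and 275 CPM in Bcl6KO stage 0. The WT values were 37.3, 20.7 and 33.8 CPM at stage 1 and 275, 130.1 and 341 CPM at stage 0. Every stage 0 library of either genotype lay above every stage 1 library, and at stage 1 the Bcl6KO libraries lay above the WT libraries, 42.5 CPM being the lowest of the Bcl6KO libraries and 37.3 CPM the highest of the WT libraries. Between the stages the log2 fold change was -2.17 in Bcl6KO (SE 0.42, edgeR adjusted p = 0.0415) and -3.02 in WT (SE 0.44, edgeR adjusted p = 0.00630). The difference between these stage effects was 0.86 (SE 0.57, edgeR adjusted p = 0.775) and did not pass. The average was -2.59 (SE 0.30, edgeR adjusted p = 6.30e-04) and passed in 17 of 17 alternative settings. Against WT, Bcl6KO libraries differed by 0.06 at stage 0 (SE 0.40, edgeR adjusted p = 0.967) and 0.92 at stage 1 (SE 0.41, edgeR adjusted p = 1).

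The fall of Il21r in WT passed in 17 of 18 alternative settings and was lost without WT stage 1 library 2 (-2.79, edgeR adjusted p = 0.0583). That in Bcl6KO passed in 7 of 18, with a fold change between -2.50 and -1.98 in all of them. Among the fits without 1 library, it was lost without any one of the 3 Bcl6KO stage 1 libraries, Bcl6KO stage 0 library 2 or 3, the 3 WT stage 1 libraries or WT stage 0 library 1. It was also lost in a fit of the Bcl6KO groups alone (-2.18, edgeR adjusted p = 0.147).

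Il2ra, which encodes CD25, the chain that gives the IL-2 receptor its high affinity, was low and variable. It stood at 0.795, 3.98 and 1.20 CPM in Bcl6KO stage 1 and at 9.18, 0.569 and 121 CPM in Bcl6KO stage 0. Libraries of WT cells had 3.99, 4.94 and 20.9 CPM at stage 1 and 8.55, 1.77 and 24.4 CPM at stage 0. The groups overlapped except at stage 1, where the Bcl6KO libraries lay just below those of WT, and Bcl6KO stage 0 alone spanned the whole range of the 12 libraries. The sum of 6 regulatory T cell markers, a list that holds Il2ra, was 298 to 431 CPM in Bcl6KO stage 1 and, at stage 0, 536 to 959 CPM, against 282 to 640 CPM in WT stage 1 and 503 to 865 CPM in WT stage 0. It was highest, 959 CPM, in the library with 121 CPM of Il2ra, which is itself part of the sum. Foxp3, which marks regulatory T cells, stood at 0.984 CPM in that library. Its highest level, 35.6 CPM, was in WT stage 0 library 1. Ctla4 was at 0 in all WT stage 1 libraries. The part of such cells in the levels of Il2ra was not tested. No comparison of Il2ra passed in edgeR, and in DESeq2 that between the Bcl6KO stages did (-4.47, DESeq2 adjusted p = 0.0161). The log2 fold change between the stages was -4.43 in Bcl6KO (SE 1.62, edgeR adjusted p = 0.193) and -0.22 in WT (SE 1.40, edgeR adjusted p = 0.990), and the Bcl6KO value was -1.29 without stage 0 library 3 (edgeR adjusted p = 0.650).

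Il15ra, whose product presents IL-15 to neighbouring cells, was near the limit of counting. It stood at 11.7, 0.398 and 8.19 CPM in Bcl6KO stage 1 and at 0 in all 3 Bcl6KO stage 0 libraries. WT stage 1 libraries had 4.78, 2.96 and 9.02 CPM, and WT stage 0 libraries had 0.994, 9.06 and 2.36 CPM. Bcl6KO stage 0 was thus below the other groups without overlap, although the 2 counts (0.398 CPM) of Bcl6KO stage 1 library 2 lie under the limit of 3 counts. The mean of that limit over the libraries of Bcl6KO stage 0 was 0.586 CPM. The mean of Il15ra was 7.06 times this value in WT stage 0 and 11.5 times in Bcl6KO stage 1. Single libraries lay near or under it, at 0.994 CPM in WT stage 0 library 1 and 0.398 CPM in Bcl6KO stage 1 library 2. The differences of Bcl6KO stage 0 from WT stage 0 and from Bcl6KO stage 1 did not pass in edgeR (edgeR adjusted p = 0.155 and 0.0852). Both passed in DESeq2 (DESeq2 adjusted p = 0.00677 and 0.00138). The number of genes detected was also lowest in Bcl6KO stage 0, at 14860 to 17734, against 18417 to 22028 in the other 9 libraries.

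Il2rg, the common gamma chain itself, was abundant at both stages. It stood at 282, 518 and 409.9 CPM in Bcl6KO stage 1 and at 513, 756 and 490.1 CPM in Bcl6KO stage 0. In WT cells it stood at 276, 321 and 484 CPM at stage 1 and at 505, 332 and 453 CPM at stage 0. The groups overlapped in every comparison between stages or genotypes, and no comparison passed in edgeR or DESeq2. Bcl6KO stage 0 (lowest library 490.1 CPM) lay just above WT stage 1 (highest library 484 CPM), a pair that was not compared. The log2 fold change between the stages was -0.54 in Bcl6KO (SE 0.31, edgeR adjusted p = 0.415) and -0.26 in WT (SE 0.31, edgeR adjusted p = 0.923), and for Bcl6KO against WT it was 0.45 at stage 0 (SE 0.31, edgeR adjusted p = 0.534) and 0.16 at stage 1 (SE 0.31, edgeR adjusted p = 1). Of the exonic bases of Il2rg, 30.5% also belong to Gm20489, a predicted gene on the same strand that was counted 0 or 1 times in a library.

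The make-up of the private chains that pair with the common gamma chain was described as each chain's share of the summed level per kilobase of Il7r, Il4ra, Il21r, Il2ra and Il15ra. Il7r held 82.8 ± 2.46% of this sum in Bcl6KO stage 1 and 47.4 ± 15.7% in Bcl6KO stage 0, against 89.8 ± 2.51% in WT stage 1 and 14.1 ± 15.6% in WT stage 0 (SD, n = 3 each). Il21r held 13.7 ± 2.74% and 40.9 ± 6.69% in Bcl6KO stages 1 and 0, against 7.35 ± 1.71% and 66.0 ± 15.4% in WT stages 1 and 0. Il4ra held 1.90 ± 1.09% and 7.60 ± 6.10% in Bcl6KO stages 1 and 0, against 0.562 ± 0.0848% and 17.2 ± 4.40% in WT stages 1 and 0. Among these chains, Il7r led in every stage 1 library and Il21r in every WT stage 0 library. Il2rb, the beta chain of the IL-2 and IL-15 receptors, was not among the chosen genes and is not in the sum. Its means were 82.0 and 56.3 CPM per kb in Bcl6KO stages 1 and 0, and 63.5 and 33.9 in WT stages 1 and 0. In Bcl6KO stage 0, Il21r led in libraries 1 and 3 (45.5% and 43.9%, against 39.9% and 36.9% for Il7r), and Il7r led in library 2 (65.5%, against 33.2% for Il21r). At stage 0 the Il7r share ran from 36.9% to 65.5% in Bcl6KO and from 4.64% to 32.1% in WT, without overlap. These shares restate the levels above, and no test was run on them.

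**Figure D3:**
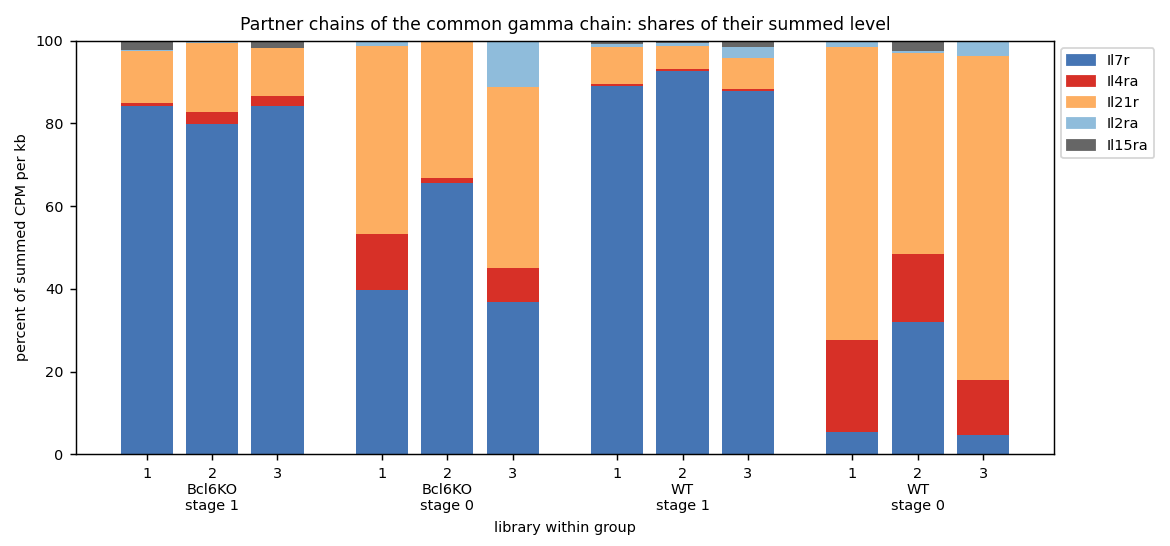
Share of each private chain, in percent, of the summed CPM per kb of Il7r, Il4ra, Il21r, Il2ra and Il15ra in each of the 12 libraries, grouped by genotype and stage. Il7r fills 80.0% to 92.6% of the stage 1 bars, Il21r fills 48.7% to 78.3% of the WT stage 0 bars, and Bcl6KO stage 0 bars lie between them, with 36.9% to 65.5% of Il7r.

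The ratio of Il7r to Il4ra per kilobase restates levels given above. Because these moved in opposite directions in WT, the ratio had to differ between the stages by more than either. It was 127, 29.5 and 36.2 in Bcl6KO stage 1 and 2.96, 51.4 and 4.56 in Bcl6KO stage 0, against 139, 197 and 152 in WT stage 1 and 0.250, 1.97 and 0.346 in WT stage 0. Bcl6KO stage 0 library 2 lay within the range of Bcl6KO stage 1, and the other stage 0 libraries lay below every stage 1 library. Within stage 0, every Bcl6KO library lay above every WT library.

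Among the gp130 family, Il6st encodes gp130 itself. It stood at 51.6, 40.9 and 54.7 CPM in Bcl6KO stage 1 and at 242, 80.6 and 213 CPM in Bcl6KO stage 0. The WT values were 49.8, 62.4 and 24.4 CPM at stage 1 and 294, 173 and 268 CPM at stage 0. Every stage 0 library was above every stage 1 library, and the genotypes overlapped at each stage. The log2 fold change between the stages was -1.86 in Bcl6KO (SE 0.46, edgeR adjusted p = 0.0825) and -2.43 in WT (SE 0.47, edgeR adjusted p = 0.0417). The average was -2.14 (SE 0.33, edgeR adjusted p = 0.00379) and passed in 17 of 17 alternative settings, the WT value in 8 of 18. Without stage 0 library 2 the Bcl6KO value was -2.21 and passed (edgeR adjusted p = 0.0385), as it did over all libraries in DESeq2 (-1.88, DESeq2 adjusted p = 0.00340). Among the fits without 1 library, the WT call was lost for 9 libraries: the 3 of WT stage 1, libraries 1 and 3 of WT stage 0, library 3 of Bcl6KO stage 0 and the 3 of Bcl6KO stage 1.

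Il6ra encodes the chain that binds IL-6. It stood at 106, 129 and 161 CPM in Bcl6KO stage 1 and at 11.98, 0 and 10.8 CPM in Bcl6KO stage 0. Libraries of WT cells had 187, 93.8 and 132 CPM at stage 1 and 0.795, 44.1 and 1.38 CPM at stage 0. Every stage 1 library was above every stage 0 library, opposite in direction to Il6st, yet the difference did not pass in edgeR. Its size on the log2 scale was 4.12 in Bcl6KO (SE 1.41, edgeR adjusted p = 0.168), 3.15 in WT (SE 1.34, edgeR adjusted p = 0.522) and 3.63 on average (SE 0.97, edgeR adjusted p = 0.0573). Without WT stage 0 library 2, the library with 44.1 CPM, the WT value was 6.92 and passed (edgeR adjusted p = 0.0455). In DESeq2 the difference passed in Bcl6KO (DESeq2 adjusted p = 0.0153) and on average (DESeq2 adjusted p = 8.25e-04), and not in WT (DESeq2 adjusted p = 0.175).

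Il27ra encodes the private chain of the IL-27 receptor. It stood at 170.4, 290.2 and 195 CPM in Bcl6KO stage 1 and at 85.0, 159 and 68.9 CPM in Bcl6KO stage 0. WT stage 1 libraries had 205, 313 and 293 CPM, and WT stage 0 libraries had 90.6, 122 and 22.2 CPM. Stage 1 libraries were again all above stage 0 libraries, by a smaller margin in Bcl6KO (170.4 against 159 CPM for the closest libraries), and the genotypes overlapped at each stage. As a log2 fold change it was 1.06 in Bcl6KO (SE 0.52, edgeR adjusted p = 0.327), 1.79 in WT (SE 0.53, edgeR adjusted p = 0.267) and 1.43 on average (SE 0.37, edgeR adjusted p = 0.0523), so it did not pass in edgeR. On average it passed in DESeq2 (1.39, DESeq2 adjusted p = 0.00921), with no filter on low counts (1.46, edgeR adjusted p = 0.00507), without WT stage 0 library 2 (1.65, edgeR adjusted p = 0.0376) and without Bcl6KO stage 0 library 2 (1.64, edgeR adjusted p = 0.0313). For Bcl6KO against WT, the values of the gp130 family lay between -1.02 (Il6ra) and 0.42 (Il27ra) at stage 0 and between -0.31 (Il27ra) and 0.11 (Il6st) at stage 1, and none passed.

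Ifngr1, which encodes the interferon gamma receptor chain, stood at 3.38, 14.3 and 20.2 CPM in Bcl6KO stage 1 and at 5.99, 142 and 10.6 CPM in Bcl6KO stage 0. In WT cells it stood at 12.6, 15.4 and 6.15 CPM at stage 1 and at 30.8, 33.3 and 9.45 CPM at stage 0. All groups overlapped, and a single library, Bcl6KO stage 0 library 2, stood above the rest. No comparison passed in edgeR or DESeq2. The log2 fold change between the stages was -2.06 in Bcl6KO (SE 1.10, edgeR adjusted p = 0.378) and -1.11 in WT (SE 1.07, edgeR adjusted p = 0.897). Between the genotypes it was 1.11 at stage 0 (SE 1.07, edgeR adjusted p = 0.684), and without that library it turned to -1.57 (edgeR adjusted p = 0.432).

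Between the genotypes, 0 of the 10 receptor genes passed edgeR's quasi-likelihood F-test after Benjamini-Hochberg adjustment at either stage. At stage 0, 0.0191% of all tested genes passed. Of the 10, Il7r and Il15ra had an unadjusted edgeR p under 0.05, where 14.7% of all tested genes did. DESeq2 called both, and 6.45% of the genes to which it gave an adjusted p. At stage 1, 0% of all tested genes passed. There Il4ra and Il21r had an unadjusted edgeR p under 0.05, where 2.57% of all tested genes did, and DESeq2 called 0 of the 10, against 0.13% of genes. At stage 0 the libraries of the genotypes did not overlap for 2 of the 10 (Il7r higher and Il15ra lower in Bcl6KO), where 12.6% of all tested genes did not overlap (4.67% higher and 7.95% lower). At stage 1 they did not overlap for 2 (Il21r higher and Il2ra lower in Bcl6KO), where 13.3% did not (5.87% higher and 7.44% lower). The gamma-delta T cell marker sums of the genotypes did not overlap at stage 1 either, at 759 to 1045 CPM in Bcl6KO and 1414 to 3702 CPM in WT, and their part in these differences was not tested. The median log2 fold change of the 10 was 0.24 at stage 0 and 0.13 at stage 1, against -0.01 and 0.02 over all tested genes.

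Averaged over the stages, 0 of the 10 passed for Bcl6KO against WT in edgeR, where 0.00637% of all tested genes did. Il7r (1.42, SE 0.38, edgeR adjusted p = 0.198) and Il15ra (edgeR adjusted p = 0.272) had an unadjusted edgeR p under 0.05, where 10.9% of all tested genes did. DESeq2 called 1, Il7r (DESeq2 adjusted p = 0.0219), and 3.06% of genes. When the genotype effects of the stages were compared with each other, 0 of the 10 passed in edgeR, where 0% of all tested genes did. Il7r, Il4ra and Il15ra had an unadjusted edgeR p under 0.05, where 7.78% of all tested genes did, and DESeq2 called 1, Il7r, and 0.848% of genes. These 2 summaries use the libraries of the comparisons at each stage.

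Beyond the 10 genes, 26 of 36 other cytokine receptor chains had enough counts to be tested. Averaged over the genotypes, stage 1 libraries had more of 2 of them and less of 1 than stage 0 libraries (edgeR's quasi-likelihood F-test, p under 0.05 after Benjamini-Hochberg adjustment). Of all tested genes, 2.04% passed as higher and 1.42% as lower. DESeq2 called 5 of the 26, where it called 9.75% of the genes to which it gave an adjusted p. Il17rb, a chain of the IL-25 receptor, rose (2.90, SE 0.40, edgeR adjusted p = 0.00209), as did Il18r1, the IL-18 receptor chain (3.48, SE 0.81, edgeR adjusted p = 0.0328). Il10ra, the IL-10 receptor chain, fell (-4.10, SE 1.05, edgeR adjusted p = 0.0493). Il18rap, the partner of Il18r1, was at 3.99 (SE 1.04, edgeR adjusted p = 0.0530). The median over the 26 was -0.26, against 0.03 over all tested genes.

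**Figure D4:**
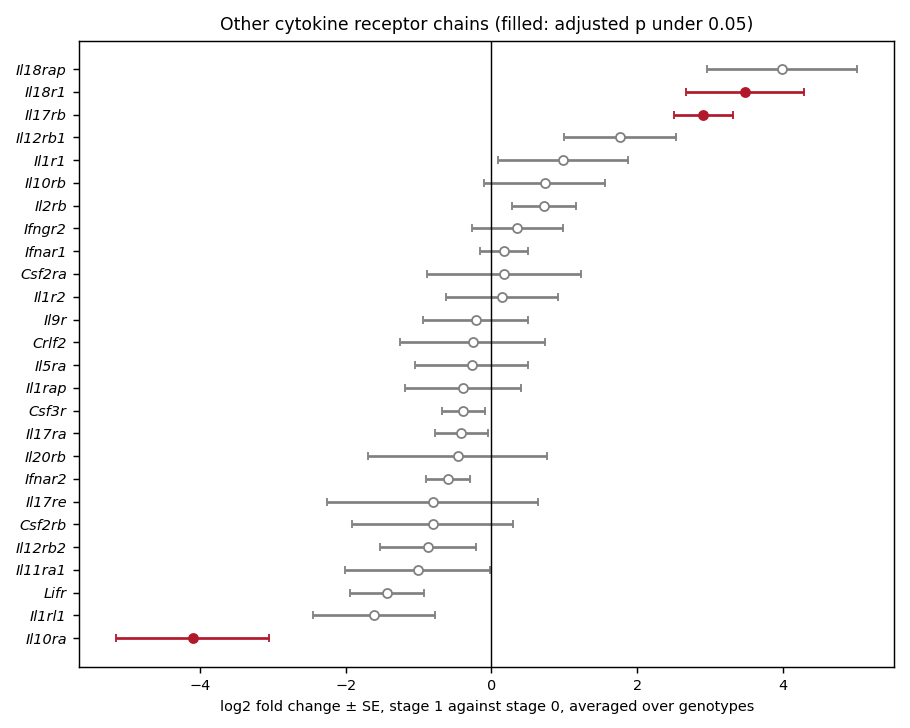
log2 fold change with its standard error (edgeR), stage 1 against stage 0 averaged over genotypes, for the 26 other cytokine receptor chains that were tested, with filled points at an adjusted p under 0.05. Il17rb (2.90) and Il18r1 (3.48) are filled to the right of 0 and Il10ra (-4.10) to the left, and most of the others lie within 1 of 0.

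Il17rb stood at 240.3, 154 and 309 CPM in Bcl6KO stage 1 and at 36.5, 9.67 and 12.6 CPM in Bcl6KO stage 0, against 401, 245 and 338 CPM in WT stage 1 and 28.2, 78.6 and 103 CPM in WT stage 0. Every stage 1 library was above every stage 0 library. In edgeR it was the only one of the 26 that passed between the stages in Bcl6KO alone (3.58, SE 0.59, edgeR adjusted p = 0.0218). There 0.675% of all tested genes passed, and DESeq2 called 4 of the 26, where it called 8.54% of genes. In WT, 0 of the 26 passed in edgeR. There 7 had an unadjusted edgeR p under 0.05, where 8.4% of all tested genes did, and DESeq2 called 5, where it called 2.66% of genes. For Bcl6KO against WT, 0 of the 26 passed in edgeR at either stage, with 3 at an unadjusted p under 0.05 at stage 0 (14.7% of all tested genes) and 2 at stage 1 (2.57%). DESeq2 called 3 at stage 0 (6.45% of genes) and 0 at stage 1 (0.13%). Il2rb, the beta chain of the IL-2 and IL-15 receptors, had the highest mean of the 26 over the 12 libraries. It stood at 352 ± 87.1 CPM in Bcl6KO stage 1, 241 ± 247 CPM in Bcl6KO stage 0, 272 ± 39.2 CPM in WT stage 1 and 145 ± 49.4 CPM in WT stage 0 (SD, n = 3 each). Its log2 fold change averaged over the genotypes, 0.72 between the stages, did not pass (edgeR adjusted p = 0.423). Nor did that of Il17ra, the shared chain of the IL-17 receptor family (-0.41, edgeR adjusted p = 0.617).

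Of 14 genes for ligands of these receptors, 4 could be tested. Among the rest, Il7 reached at most 0.200 CPM in any library, Il2 0.397 CPM, Il15 1.19 CPM, Il6 0.205 CPM and Ifng 11.2 CPM. Il4 stood at 26.4, 32.4 and 77.5 CPM in Bcl6KO stage 1 and at 3.59, 0.569 and 0.394 CPM in Bcl6KO stage 0, against 49.4, 42.1 and 59.9 CPM in WT stage 1 and 31.4, 13.0 and 6.10 CPM in WT stage 0. It was higher at stage 1 in each genotype without overlap, opposite to Il4ra. Il4 rose in Bcl6KO (4.88, SE 0.99, edgeR adjusted p = 0.0489) and on average (3.23, SE 0.65, edgeR adjusted p = 0.0174), and in WT its value was 1.58 (SE 0.85, edgeR adjusted p = 0.671). Il13, the other ligand that acts through Il4ra, rose in Bcl6KO (7.17, SE 1.49, edgeR adjusted p = 0.0489) and on average (4.82, SE 0.94, edgeR adjusted p = 0.0159). Its Bcl6KO stage 0 mean, 0.464 CPM, lies under the limit of 3 counts, so the size of the rise there is uncertain.

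Il21, which encodes the ligand of Il21r, stood at 49.1, 214 and 108 CPM in Bcl6KO stage 1 and at 80.9, 93.5 and 83.5 CPM in Bcl6KO stage 0. The WT values were 29.9, 22.7 and 34.3 CPM at stage 1 and 0, 7.09 and 15.0 CPM at stage 0. Every Bcl6KO library lay above every WT library, yet the difference did not pass in edgeR. For Bcl6KO against WT the log2 fold change was 3.54 at stage 0 (SE 1.02, edgeR adjusted p = 0.176) and 2.10 at stage 1 (SE 0.96, edgeR adjusted p = 1). Of the 4 ligand genes, 0 passed between the genotypes in edgeR at either stage, with 3 at an unadjusted p under 0.05 at stage 0 (14.7% of all tested genes) and 1 at stage 1 (2.57%). DESeq2 called 3 of them at stage 0 (6.45% of genes) and 0 at stage 1 (0.13%).

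Of 25 genes of the Janus kinase and STAT pathway, 24 were tested. Averaged over the genotypes, Stat6, which carries IL-4 signals, fell at stage 1 (-1.27, SE 0.29, edgeR adjusted p = 0.0324). Stat6 stood at 69.3 ± 13.7 CPM in Bcl6KO stage 1 and, at stage 0, 189.8 ± 102 CPM, against 71.7 ± 8.24 CPM in WT stage 1 and 153 ± 58.6 CPM in WT stage 0 (SD, n = 3 each). Its stages did not overlap, and its direction was that of Il4ra. Jak1, the kinase bound by the private chains and by gp130, had the highest mean of the list, with 414 ± 128, 505 ± 89.1, 399 ± 32.3 and 287 ± 42.8 CPM in Bcl6KO stage 1, Bcl6KO stage 0, WT stage 1 and WT stage 0. Within either genotype alone 0 of the 24 passed between the stages in edgeR, with 5 in Bcl6KO (16.4% of all tested genes) and 4 in WT (8.4%) at an unadjusted p under 0.05. DESeq2 called 4 in Bcl6KO (8.54% of genes) and 0 in WT (2.66%). Between the genotypes 0 passed in edgeR at either stage, with 2 at stage 0 (14.7% of all tested genes) and 0 at stage 1 (2.57%) at an unadjusted p under 0.05, and DESeq2 called 0 at either stage.

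For the 4 receptor genes that passed in a comparison, the genes with the most similar profile were taken by the root mean square difference of centred log2 CPM over the 12 libraries, among 10756 tested genes with at least 5 CPM in their highest group. The closest profiles were those of Il21r, whose nearest genes were Egr2 (a difference of 0.282), Med14 (0.323) and Hivep3 (0.378). Egr2 had 90.97, 157 and 89.8 CPM in Bcl6KO stage 1 and, at stage 0, 437, 388 and 469 CPM, against 90.1, 45.0 and 90.2 CPM in WT stage 1 and 496, 357 and 598 CPM in WT stage 0. Like Il21r, it was higher in every stage 0 library than in any stage 1 library. Il6st was followed by Sh3bp2 (0.434), Xpnpep3 (0.449) and Rasgrp1 (0.470), and Il4ra by Otud1 (0.635), Gpr174 (0.808) and Slc25a17 (0.871). The nearest genes of Il7r were Sgms1 (0.707), Hist1h1b (0.730) and Anks1 (0.738). Sgms1 had 86.8, 54.1 and 42.5 CPM in Bcl6KO stage 1 and, at stage 0, 55.5, 38.9 and 42.3 CPM, against 32.5, 57.1 and 54.6 CPM in WT stage 1 and 7.55, 14.4 and 5.71 CPM in WT stage 0. As for Il7r, the WT stage 0 libraries of Sgms1 were the lowest. Among the 10 receptor genes, the most similar pair was Il21r and Il6st (0.812), followed by the neighbours Il4ra and Il21r (0.977) and by Il7r and Il27ra (1.01).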

How the data were processed

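RNA was sequenced from 12 libraries of sorted thymic iNKT cells. The authors deposited 1 table of counts per library. The submitters' processing notes name bcl2fastq, TopHat2, Bowtie2, DESeq and the mouse build mm10. No version, annotation, counting program or strand setting is given in the sources used here. Of 48672 IDs, 48312 matched a symbol of GENCODE M21. Library totals ran from 4129919 to 8038717 counts. Libraries of a group all differed by more than sampling noise (chi-square per gene 27.6 to 170), so none was merged. The limit of 3 counts covers counting error alone, since reads were counted without molecular identifiers. Although the totals differed, 3 counts stood for nearly the same CPM in all libraries (0.569 to 0.615). Whether the deposited counts had been scaled beforehand was not tested. If they had been, a count would not be a read, and this limit would not be exact.

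Tests used edgeR 4.0.16 under R 4.3.3. Genes passing filterByExpr (15704) were scaled by TMM and fitted over all 12 libraries with 1 mean per group (robust quasi-likelihood, 8 residual degrees of freedom). Tests were two-sided, with Benjamini-Hochberg adjustment over all tested genes at 0.05. CPM use the TMM-scaled library size, and each standard error is the log2 fold change over the square root of F. Exon lengths are unions over GENCODE transcripts. Profiles used log2 CPM with a prior count of 2. Alternatives were DESeq2 1.42.0, its size factors in edgeR, no filter on low counts, Sp100 left out, the replicate number as a block, a fit of the compared groups only, and each library left out in turn. The script was tested on simulated counts. All 10 receptor genes are named. Of the other lists, each gene past the threshold in any comparison is named, with the 3 of highest mean CPM, and for each receptor gene past the threshold the 3 genes of most similar profile. A result on the Janus kinase and STAT list is not reported here. Il18rap, ligand genes that were not tested and genes of the sort check were added after their values were seen. The receptor genes and lists were chosen with earlier results of these data known. Chromatin accessibility libraries of the series were not analysed here.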

Additional observations from a re-analysis of the deposited data

How the results depend on the processing

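The fall of Il4ra, Il21r and Il6st at stage 1, averaged over genotypes, kept its sign and passed in each of the 17 alternative settings, while every within-genotype call was lost under some. The number of receptor genes past the threshold was 4 in WT between the stages, and 0 to 5 with 1 library left out. In Bcl6KO it was 1, with 0 to 1 without 1 library, 6 in DESeq2, 2 with no filter on low counts, and 0 in a fit of the Bcl6KO groups alone. For the stage average it was 4, and 7 in DESeq2. For Bcl6KO against WT at stage 0 it was 0, but 2 in DESeq2, 1 with no filter and 0 to 1 without 1 library. It was 1 in DESeq2 both averaged over the stages and for the difference between the genotype effects. The cause of these changes was not tested, except that leaving out a library leaves fewer samples.

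Over all tested genes, the count past the threshold at stage 0 for Bcl6KO against WT was 3, against 950 in DESeq2, 103 with no filter, 0 in the 2 groups alone and 0 to 133 without 1 library. At stage 1 it was 0, against 20, 11 and 0 to 1. Between the stages it was 106 in Bcl6KO, against 1309, 309, 3 in the 2 groups alone and 7 to 277. In WT it was 68, against 376, 142 and 20 to 139, and on average 544, against 1495, 830 and 193 to 708. Averaged over stages, Bcl6KO against WT had 1, against 450, 88 and 0 to 62, and the difference between genotype effects 0, against 130, 7 and 0.

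Values near 0 changed sign. The log2 fold change of Il7r between the Bcl6KO stages was -0.0191 in DESeq2 and with its size factors, and ran from -0.24 to 0.73 without 1 library. That of Il21r at stage 0 for Bcl6KO against WT was -0.0308 with no filter and ran from -0.29 to 0.35. Without 1 library, other ranges across 0 for Bcl6KO against WT at stage 0 were -1.59 to 2.74 for Il6ra, -0.0341 to 0.85 for Il27ra, -1.57 to 1.62 for Ifngr1 and -1.25 to 3.06 for Il2ra. At stage 1 they were -0.0607 to 0.43 for Il2rg, -0.28 to 0.22 for Il6ra, -0.35 to 0.83 for Il15ra, -0.20 to 0.39 for Il6st and -0.37 to 0.62 for Ifngr1. Between the stages they were -2.57 to 0.61 for Ifngr1 in Bcl6KO, and -0.0850 to 1.69 for Il15ra and -1.36 to 0.95 for Il2ra in WT.

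Deviations of same-numbered libraries from their group means correlated little (2 of 18 pairs over 0.1, range -0.0750 to 0.120). With 3 libraries a group, these values cannot show whether the numbers pair libraries. With the replicate number as a block, the receptor genes past the threshold were 0 in Bcl6KO and 3 in WT between the stages, 5 on average, and 0 in each genotype comparison. The block ended the calls of Il21r in Bcl6KO (-2.15, edgeR adjusted p = 0.0860) and Il6st in WT (-2.36, edgeR adjusted p = 0.0854), and added that of Il27ra on average (1.55, edgeR adjusted p = 0.0334). Over all genes the block gave 1 call at stage 0 and 39 between the Bcl6KO stages.

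Depth limits Il15ra, Il2ra and Il6ra, with libraries at or near 3 counts. A fit of 2 groups alone could not be made for averages and the difference between effects. No result between the genotypes passed for the receptor genes in edgeR over all 12 libraries with the filter on low counts. Such a p does not show that levels were alike.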
